A study of Mus musculus with 12 samples.

Results

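The genes described here are the 4 Notch receptors (Notch1, Notch2, Notch3, Notch4), 4 of their ligands (Dll1, Dll3, Jag1, Jag2) and 2 fringe glycosyltransferases (Lfng, Mfng). They were selected by gene symbol, and each symbol matched a single entry among the 55397 genes of the count table. All 10 passed the low-count filter, as did 18264 genes in all. RNA was sequenced from primary neural cultures of newborn mice (P0) that carried 1 frameshift allele of Myt1l, which encodes a zinc finger transcription factor of neurons, written (+/-) or HET, or none, written (+/+) or WT. The groups held 3 HET animals (505, 506 and 508) and 3 WT animals (510, 511 and 513), each with 2 libraries whose counts were summed. The mutant allele lacks 7 bp of exon 6, shifts the frame at amino acid 11 and stops at amino acid 78 in exon 9. Cultures of both genotypes received 2 µM Ara-C, a nucleoside that kills dividing cells, a few days after plating. All animals were labelled as male C57BL/6J cortex, whereas by the methods of the study the founders were crossed to C57BL/6N mice, and cultures came from either hippocampus or cortex.

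Across the series, libraries held 20181477 to 26594444 counts and animals 40642699 to 52833161. What separated both libraries of an animal was not stated. Myt1l itself lay between 89.0 and 165 CPM (a gene's counts per mega-count of TMM-scaled library size) in HET animals and between 109 and 147 CPM in WT animals. It does not check the genotype, since transcripts of the mutant allele were described as not degraded. WT 511 had 18805 counts of Xist, the RNA that coats the inactive X chromosome of female cells, against 5 to 10 in every other animal, which goes against its label. All 8 neuron markers had a negative difference between HET and WT, with a median log2 fold change of -0.48, and HET 505 had the lowest summed neuron marker level, 1867 CPM against 3219 to 4105 in the others. The 10 cortical and hippocampal neuron markers summed to 995 to 1538 CPM in HET and 1458 to 1703 CPM in WT animals, and none of them was at 0 counts in all animals. They were mixed, with 7 negative and 3 positive log2 fold changes (Emx2, Zbtb20 and Fezf2) and a median of -0.23. In these bulk samples, fewer cells of a type and less RNA per cell cannot be told apart.

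Notch signalling passes between touching cells. A ligand of the Delta or Jagged family on one cell binds a Notch receptor on its neighbour, the receptor is cut by an ADAM protease and then by gamma-secretase, and its intracellular domain enters the nucleus, joins the DNA-binding protein RBPJ and switches on Hes and Hey repressors. Fringe enzymes extend sugars on the receptor and thereby alter which ligands it answers to. In the developing brain the pathway keeps radial glia and progenitors undifferentiated and favours astrocytes, while cells that become neurons display Delta ligands.

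The 250 bases before the start are shown for 4 members, chosen after their values were seen: the most abundant receptor (Notch2), fringe (Lfng) and ligand (Jag2) of the set per kilobase, and the member with the lowest fold of HET over WT (Dll3). The windows come from RefSeq on GRCm38.p6, where 9 of the 10 members had an entry. The start is thus the RefSeq start, from which distances are counted, and it can differ from the gene end in the count table. The windows of Dll3 and Jag2 lie inside the gene spans of the count table given below, as do those of Notch1 and 1 of Dll1. Those of Notch2 and Lfng overlap these spans at the edge. They were searched on both strands for AAAGTT, the core bound by MYT1 family proteins, for TGGGAA, the core bound by RBPJ, and for CAGCTG, an E-box, the kind of site bound by basic helix-loop-helix factors. The 3 motifs do not share a stretch of sequence that would let 1 match count for another. Capitals mark matches in either orientation.
Notch2, chr3:98013288-98013537, plus strand: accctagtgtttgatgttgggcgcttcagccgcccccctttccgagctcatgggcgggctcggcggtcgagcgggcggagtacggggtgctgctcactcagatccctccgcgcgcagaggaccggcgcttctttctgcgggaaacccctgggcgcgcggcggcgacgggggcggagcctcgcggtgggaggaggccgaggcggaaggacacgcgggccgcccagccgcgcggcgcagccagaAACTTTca
Lfng, chr5:140607091-140607340, plus strand: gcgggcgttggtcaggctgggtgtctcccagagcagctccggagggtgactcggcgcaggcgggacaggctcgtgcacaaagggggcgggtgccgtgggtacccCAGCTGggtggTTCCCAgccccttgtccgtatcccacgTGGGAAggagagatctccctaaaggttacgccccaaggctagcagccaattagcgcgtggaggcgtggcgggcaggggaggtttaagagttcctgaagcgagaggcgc
Dll3, chr7:28301786-28302035, minus strand: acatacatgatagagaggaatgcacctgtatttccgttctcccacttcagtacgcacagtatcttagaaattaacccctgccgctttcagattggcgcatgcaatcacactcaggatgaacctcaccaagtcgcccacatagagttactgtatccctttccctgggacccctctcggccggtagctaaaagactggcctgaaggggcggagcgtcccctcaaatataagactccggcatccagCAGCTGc
Jag2, chr12:112929496-112929745, minus strand: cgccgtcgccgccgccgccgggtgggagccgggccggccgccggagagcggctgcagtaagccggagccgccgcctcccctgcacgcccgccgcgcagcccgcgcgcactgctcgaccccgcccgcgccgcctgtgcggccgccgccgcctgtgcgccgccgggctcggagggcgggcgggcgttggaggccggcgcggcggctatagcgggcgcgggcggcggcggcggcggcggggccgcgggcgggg

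The window of Notch2 held AAAGTT once, on the opposite strand, 8 bases before the start. It was the 1 of 10 member windows with this motif, which 12.4% of all 32851 windows contained. The window of Lfng held the RBPJ core in both orientations, 135 and 108 bases before the start, and an E-box at 146 bases. No other member window held the RBPJ core, which occurred in 21.6% of all windows. The E-box was present in 4 member windows, those of Lfng, Jag1 (82 bases), Dll3 (7 bases) and 1 of the pair of Dll1 windows (132 bases), against 13% of all windows. Jag2 had none of the motifs and the most GC-rich window of the members, 87.2% against a median of 52.4% over all windows. These matches describe letters in a window and are not binding sites.

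To compare levels between genes, CPM was divided by the exon length given in the count table. Per kilobase of exon, Lfng and Notch2 were the most abundant members in both genotypes. In WT cultures Lfng had 11.2 ± 4.23 CPM per kb (SD, n = 3), Notch2 8.94 ± 2.55 and Notch1 5.60 ± 0.608. Jag2 followed as the leading ligand with 4.65 ± 0.398 CPM per kb, then Notch3 with 3.09 ± 0.570 and Jag1 with 1.24 ± 0.148. Dll1, Dll3, Notch4 and Mfng lay below 1 CPM per kb, at 0.891, 0.478, 0.231 and 0.162. Among neighbours in this WT order, the ranges over animals overlapped for Lfng and Notch2, for Notch1 and Jag2, and for Notch4 and Mfng.

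The HET order of levels per kb was the same for the first 7 genes, from Lfng with 18.7 ± 1.64 CPM per kb to Dll1 with 0.752 ± 0.0403. Notch4 (0.359 CPM per kb) then stood before Dll3 (0.270 CPM per kb), the reverse of WT, but their ranges overlapped in HET. The ranges of Jag2 and Notch3, and of Dll3 and Mfng, also overlapped there.

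**Figure D1:**
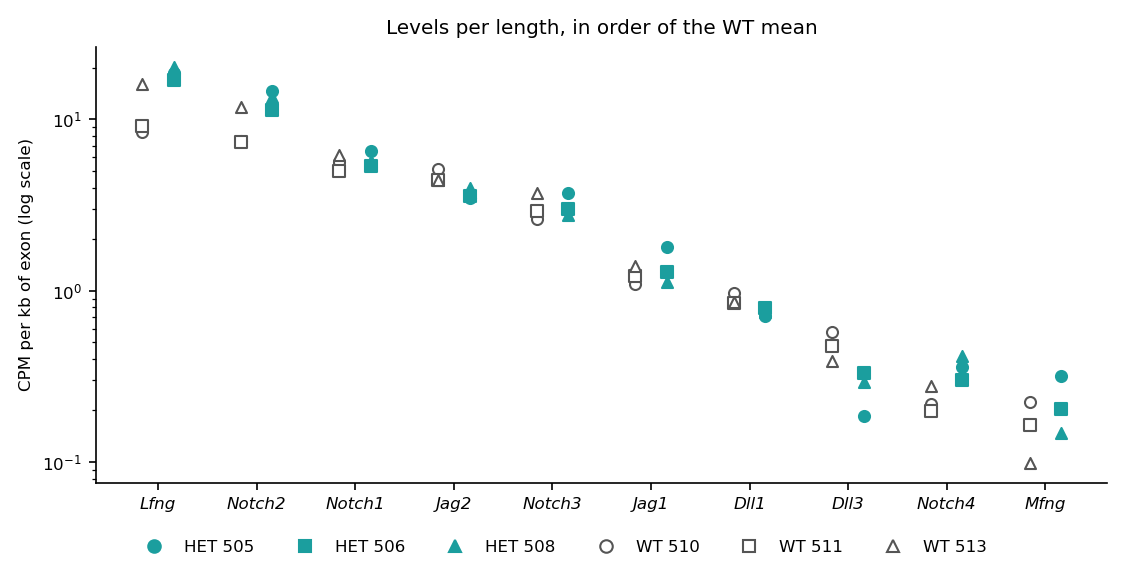
Level of each Notch member in CPM per kilobase of exon (log axis), ordered by the WT mean, with 1 symbol per animal (filled, HET; open, WT). Lfng and Notch2 lie at the top in all 6 animals. Dll3 and Notch4 exchange places between the genotypes in their means, but Dll3 still lies above Notch4 in HET 506.

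The receptors were compared first. Notch1, on chromosome 2 (mm10 chr2:26457903-26516663, minus strand), is the receptor most used by neural progenitors. It measured 93.1, 76.3 and 81.6 CPM in HET 505, 506 and 508 and 79.9, 71.0 and 88.3 CPM in WT 510, 511 and 513. The groups overlapped, and the log2 fold change of HET against WT was 0.07 (SE 0.12, 95% interval -0.20 to 0.34, adjusted p = 0.714 by edgeR's quasi-likelihood test).

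Notch2 (chr3:98013527-98150361, plus strand) is a receptor of radial glia and astrocytes. Its level was 157, 123 and 147 CPM in the HET animals against 81.2, 79.9 and 128 CPM in the WT animals. WT 513, at 128 CPM, lay above HET 506 and apart from the other WT animals, so the groups overlapped. The fold of HET over WT was 1.48 (95% interval 1.08 to 2.03), a log2 fold change of 0.56 (SE 0.20). Its unadjusted p was 0.0219 and its adjusted p over all genes 0.184 by edgeR. A same-strand gene within its span, Gm42820, had 2036 counts over all animals beside 31496 of Notch2, and reads shared between them cannot be assigned with certainty.

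Notch3 (chr17:32120820-32166852, minus strand) is best known from pericytes and vascular smooth muscle. It measured 30.1, 24.3 and 22.4 CPM in HET and 21.3, 23.5 and 30.2 CPM in WT animals. The highest HET and the highest WT animal were nearly equal, and the log2 fold change was 0.03 (SE 0.16, interval -0.34 to 0.41, edgeR adjusted p = 0.908).

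Notch4 (chr17:34564268-34588503, plus strand) is mainly an endothelial receptor. It was rare, with 2.91, 2.44 and 3.34 CPM in HET and 1.75, 1.60 and 2.25 CPM in WT animals, which rested on 72 to 136 counts per animal. Every HET animal lay above every WT animal. The fold was 1.55 (95% interval 1.11 to 2.17) and the log2 fold change 0.64 (SE 0.21), with an unadjusted p of 0.0165 and an edgeR adjusted p of 0.175.

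Among the ligands, Dll1 (chr17:15367354-15376872, minus strand), a Delta ligand of newborn neurons, measured 3.02, 3.36 and 3.15 CPM in HET and 4.09, 3.56 and 3.63 CPM in WT animals. The HET animals all lay below the WT animals. The log2 fold change was -0.25 (SE 0.15, interval -0.59 to 0.10, edgeR adjusted p = 0.326), an interval that spans no difference.

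Dll3 (chr7:28293553-28302238, minus strand) is a Delta family member that acts inside the cell and does not activate receptors on neighbours. It had 0.529, 0.942 and 0.836 CPM in HET and 1.63, 1.36 and 1.10 CPM in WT animals, from 24 to 85 counts each. All HET animals were lower than all WT animals, and HET 505 was the lowest. The fold was 0.561 (95% interval 0.356 to 0.885) and the log2 fold change -0.83 (SE 0.28), with an unadjusted p of 0.0193 and an edgeR adjusted p of 0.180. For this gene, the 2 libraries from the same animal lay a median of 0.46 apart on the log2 scale, against 0.015 for Notch2.

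Jag1 (chr2:137081456-137116644, minus strand) is a ligand of progenitors, glia and vascular cells. It measured 10.4, 7.51 and 6.56 CPM in HET and 6.38, 7.14 and 8.10 CPM in WT animals. Only HET 505 exceeded the WT range, and the log2 fold change of 0.18 (SE 0.19, interval -0.27 to 0.63, edgeR adjusted p = 0.560) became -0.033 without this animal.

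Jag2 (chr12:112907819-112929776, minus strand), the most abundant ligand of the set, measured 24.1, 24.7 and 27.9 CPM in HET and 35.6, 30.7 and 30.8 CPM in WT animals. Every HET animal lay below every WT animal. The fold was 0.789 (95% interval 0.669 to 0.930) and the log2 fold change -0.34 (SE 0.10). Its unadjusted p, 0.0108, was the lowest of the members and its edgeR adjusted p was 0.168.

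Lfng (chr5:140607320-140615545, plus strand), lunatic fringe, measured 47.0, 42.6 and 50.8 CPM in HET and 21.1, 22.8 and 40.3 CPM in WT animals. The HET animals all lay above the WT animals, although WT 513 was close to HET 506 and far from the other WT animals. The fold was 1.67 (95% interval 1.14 to 2.44) and the log2 fold change 0.74 (SE 0.24), with an unadjusted p of 0.0144 and an edgeR adjusted p of 0.171.

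Mfng (chr15:78755882-78773475, minus strand), manic fringe, was the least abundant member. It had 0.903, 0.579 and 0.418 CPM in HET and 0.634, 0.467 and 0.281 CPM in WT animals, from 12 to 41 counts each. The groups overlapped, and the log2 fold change of 0.45 (SE 0.40, interval -0.48 to 1.38, edgeR adjusted p = 0.484) became 0.10 without HET 505.

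**Figure D2:**
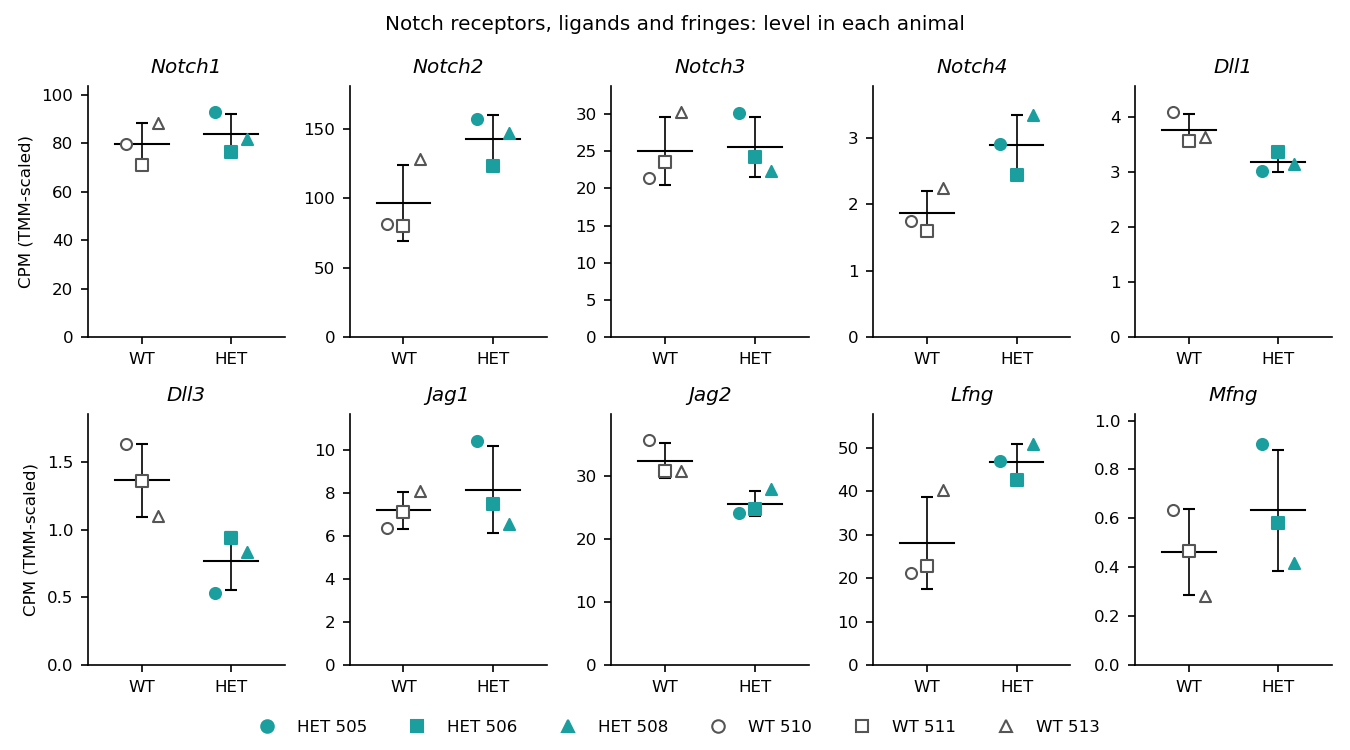
CPM of each Notch member in every animal (filled, HET; open, WT; horizontal bar, mean; error bar, SD of 3 animals), each panel with its own axis from 0. Notch4 and Lfng were higher and Dll1, Dll3 and Jag2 lower in every HET animal than in any WT animal, and WT 513 (open triangle) stood close to the HET animals for Notch2 and Lfng.

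No member passed an adjusted p of 0.1 in the edgeR test across all genes, in either direction, and neither did any other gene (0% of 18264 higher and 0% lower). The smallest adjusted p of any gene was 0.166. At an unadjusted p under 0.05, 3 members were higher in HET (Notch2, Notch4, Lfng), where 13.2% of all tested genes were, and 2 were lower (Dll3, Jag2), where 9.11% of all genes were. All HET animals lay above all WT animals for 2 members (Notch4, Lfng) and 15.5% of genes, and below them for 3 members (Dll1, Dll3, Jag2) and 13.5% of genes. The median log2 fold change was 0.32 over the receptors, -0.29 over the 4 ligands and 0.59 over Lfng and Mfng, beside 0.003 over all tested genes.

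Whether members passed the adjusted threshold depended on the tool, the low-count filter and WT 513. DESeq2 on the same animals gave Notch2, Notch4 and Lfng as higher (adjusted p = 0.0801, 0.0812 and 0.0483), along with 8.01% of its genes, and Jag2 as lower (adjusted p = 0.0594), along with 4.57%. Without WT 513, edgeR called these 3 members higher, with 12.3% of genes, and Dll3 and Jag2 lower, with 5.95%. The log2 fold change was then 0.81 for Notch2 and 1.08 for Lfng. With no low-count filter, edgeR called Notch2 and Lfng higher, with 3.16% of genes, and no member lower, with 1.4% of genes lower. Treating the 12 libraries as separate samples called 3 members higher and 2 lower, with 25.6% and 23.3% of genes (24.1% and 21.5% with the library number as a block), but libraries of 1 animal are not independent and these p-values are too small. DESeq2 with genetic sex as a covariate, the model named in the methods, called none of the members, with 1.39% of genes higher and 0.217% lower. WT 511 was the 1 animal of its sex in that model, which therefore compared the HET animals with 510 and 513.

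**Figure D3:**
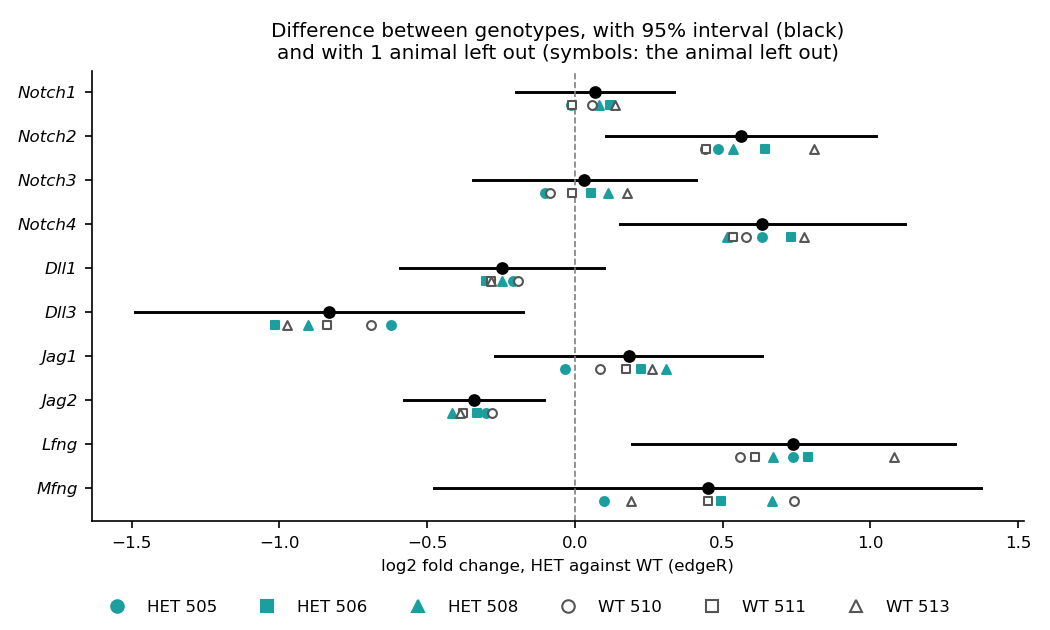
edgeR log2 fold change of HET against WT for each member (black point) with its 95% interval (black line), and the value with 1 animal left out (symbols, by the animal left out). The intervals of Notch2, Notch4, Dll3, Jag2 and Lfng exclude 0, and leaving out WT 513 moved Lfng to 1.08.

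Relative amounts within each class were then described from CPM per kb. Notch2 made up 57.9%, 56.9% and 60.4% of the receptor sum in the HET animals and 47.1%, 47.8% and 53.8% in the WT animals. Notch1 took 25.9%, 26.7% and 25.5% in HET and 35.1%, 32.2% and 28.1% in WT. Notch3 took 12.3% to 14.9% in HET and 16.5% to 18.8% in WT, and Notch4 1.43% to 1.84% in HET and 1.26% to 1.36% in WT. The HET cultures thus held larger Notch2 and Notch4 shares and smaller Notch1 and Notch3 shares than every WT culture, without a test. Shares of a sum depend on each other, and the CPM of Notch1 and Notch3 overlapped between the genotypes. The sum over receptors was 22.6 ± 2.57 CPM per kb in HET and 17.9 ± 3.67 CPM per kb in WT (SD, n = 3), with overlapping ranges.

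The ligand sum was 6.14, 5.96 and 6.16 CPM per kb in HET and 7.74, 6.96 and 7.06 CPM per kb in WT animals, so that each HET culture held less. Jag2 supplied 56.2% to 64.9% of that sum in HET and 62.6% to 65.9% in WT animals. Of the Lfng and Mfng sum, Lfng supplied 97.4% to 99.4% in all animals, so this sum followed Lfng. It leaves out Rfng, the remaining fringe, which is not a member. Rfng had 12.6, 17.6 and 17.6 CPM per kb in HET and 19.1, 20.4 and 18.8 CPM per kb in WT animals, above Lfng in each WT animal.

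Cell type markers differed between the same animals. The 8 astrocyte markers summed to 10381 to 11738 CPM in HET animals, to 7386 and 7471 CPM in WT 511 and 510, and to 11409 CPM in WT 513. The progenitor list summed to 5639 to 6469 CPM in HET animals, to 3806 and 4108 CPM in WT 511 and 510, and to 5657 CPM in WT 513. Vim (4987 to 5665 CPM in HET) made up most of the progenitor sum, and Gfap (5799 to 6079 CPM in HET) was the largest part of the astrocyte sum. By these sums WT 513 was within the HET range for both lists. In the mean log2 difference, which weighs genes equally, WT 513 stood at 0.31 for both, against 0.22 to 0.50 (astrocyte) and 0.23 to 0.49 (progenitor) in HET. Notch2 and Lfng were likewise closest to HET in this animal. Of 8 astrocyte markers 6 had a positive log2 fold change, as did all 6 tested progenitor markers, with medians of 0.24 and 0.40. All 6 ependymal markers were higher in every HET than in every WT animal (summed 962 to 1108 against 529 to 724 CPM; median log2 fold change 0.91). The part of these cell types in the Notch2 and Lfng differences was not tested.

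After subtraction of the mean log2 difference of the astrocyte list, Lfng stood at 0.30, 0.34 and 0.70 in HET and at -0.26, -0.01 and 0.27 in WT animals, still without overlap. Notch2 then stood at 0.24, 0.07 and 0.42 in HET and at -0.13, -0.01 and 0.14 in WT animals, with overlap. With the ependymal list subtracted, Lfng overlapped as well, and so did Notch4 (-0.37, -0.38 and -0.02 in HET, -0.12, 0.11 and 0.01 in WT animals). After the astrocyte subtraction Notch1 stood at -0.27, -0.38 and -0.18 in HET and at 0.09, 0.06 and -0.16 in WT animals. Notch1, Notch3, Dll1, Dll3 and Jag2 then lay lower in every HET than in every WT animal, Notch4 higher, and Jag1 and Mfng overlapped. The astrocyte list itself stood at 0.50, 0.32 and 0.22 in HET and at -0.09, -0.22 and 0.31 in WT animals. Its subtraction therefore lowers an unchanged gene in every HET animal and in WT 513, and Notch1 and Notch3 overlapped before it. The share of all tested genes without overlap after this subtraction was not computed. These subtractions were chosen after the values had been seen and carry no test.

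The neuron markers summed to 1867, 3219 and 3462 CPM in HET 505, 506 and 508 and to 3738, 4105 and 3537 CPM in WT 510, 511 and 513, so the HET animals with less Dll3 and Jag2 also had less of this list. With the mean log2 difference of the neuron list subtracted, Dll3 stood at -0.29, -0.23 and -0.52 in HET and at 0.28, -0.14 and -0.15 in WT animals, without overlap, while Jag2 overlapped. The gap for Dll3, between -0.23 in HET 506 and -0.15 in WT 513, is smaller than the median of 0.46 between libraries of the same animal. The part of neuron content in the Dll3 and Jag2 values was not tested.

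**Figure D4:**
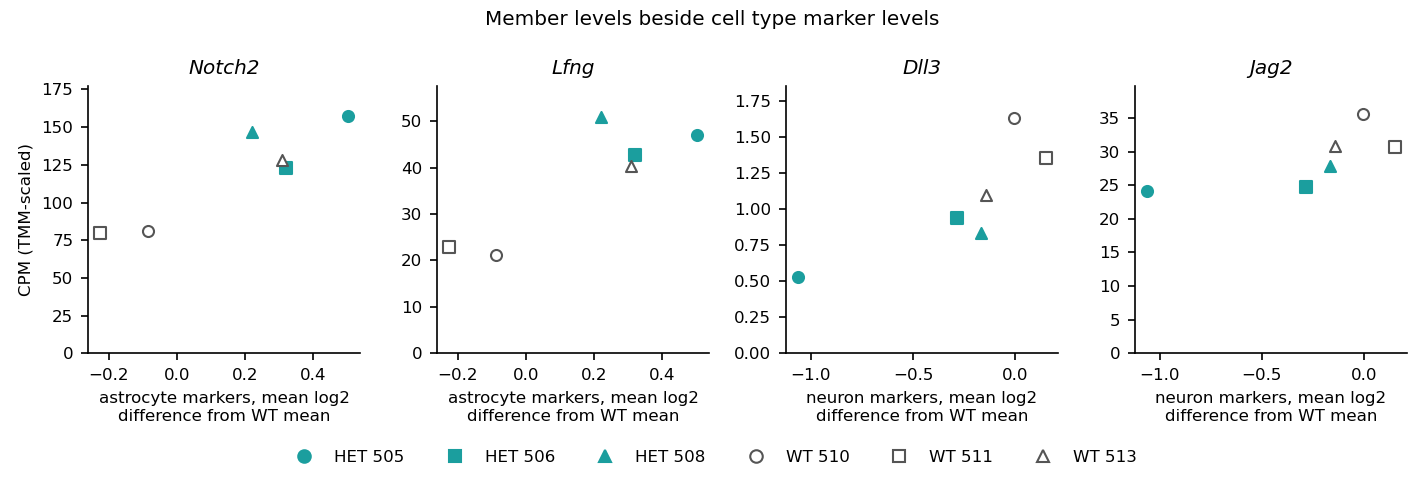
CPM of Notch2 and Lfng against the mean log2 difference of 8 astrocyte markers from the WT mean, and CPM of Dll3 and Jag2 against that of 8 neuron markers, with 1 symbol per animal (filled, HET; open, WT). WT 513 (open triangle) lies among the HET animals on the astrocyte axis, and HET 505 (filled circle) lies far below all others on the neuron axis.

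Vascular markers bear on Notch3, Notch4 and Jag1. The 7 pericyte and smooth muscle markers summed to 618 to 1017 CPM in HET and 566 to 747 CPM in WT animals, with HET 505 highest, as for Jag1. The endothelial list summed to 60.8, 26.3 and 28.7 CPM in HET 505, 506 and 508 and to 16.3 to 25.0 CPM in WT animals, whereas Notch4 was highest in HET 508. Of the 8 endothelial genes 6 passed the filter and 5 of these had a positive log2 fold change. Kdr, Cdh5 and Flt1 made up nearly all of the endothelial sum. Pecam1 was low, at 0.266 to 0.683 CPM in HET and 0.328 to 0.579 CPM in WT animals (log2 fold change -0.04, SE 0.40). Among the tested endothelial genes, Kdr and Emcn were higher in every HET than in every WT animal, and the others overlapped. Over the 6 tested endothelial genes the median log2 fold change was 0.67, and Pecam1 was the 1 with a negative value. Choroid plexus, microglia, oligodendrocyte lineage and fibroblast markers also had positive medians (1.85, 0.76, 0.49 and 1.02), and HET 505 had the highest summed level of each. No marker gene was at 0 counts in all animals, but Cldn5, Tie1, Eomes and Sox10 had at most 7 counts in any animal and did not pass the filter. The part of these cells in the Notch values was not tested.

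The rest of the pathway was read from 55 further genes, of which 53 were tested. None passed an adjusted p of 0.1 in edgeR. Of these 53, 28 had a positive and 25 a negative log2 fold change, with a median of 0.01, and at an unadjusted p under 0.05 there were 11 higher and 8 lower, where 13.2% and 9.11% of all tested genes were. The HET animals lay above all WT animals for 11 of these genes and below them for 9, beside 15.5% and 13.5% of all tested genes.

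Other ligands and their relatives had mostly negative values, with 6 of 8 negative and a median of -0.27. Dlk2, a Delta-like protein without the receptor-activating domain, had 10.1, 14.1 and 12.7 CPM in HET and 20.6, 23.7 and 16.2 CPM in WT animals (log2 fold change -0.72, SE 0.17, edgeR adjusted p = 0.166). Ccn3 (-0.64) and Egfl7 (-0.57), secreted proteins that bind Notch or its ligands, also had unadjusted p-values under 0.05. Dner, a neuronal transmembrane protein with EGF repeats, had a log2 fold change of -0.29. Dll4, the endothelial Delta ligand, was at 0.00 (95% interval -0.64 to 0.64).

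All 4 ubiquitin ligases that make ligands active by driving their endocytosis had negative log2 fold changes, with a median of -0.32. Neurl1b measured 24.9, 33.4 and 31.4 CPM in HET and 50.5, 47.3 and 37.5 CPM in WT animals (log2 fold change -0.59, SE 0.15, edgeR adjusted p = 0.166). Mib2 (-0.22) had an unadjusted p under 0.05, while Neurl1a (-0.41) and Mib1 (-0.04) did not. The HET animals lay below all WT animals for Neurl1b, Mib2 and Neurl1a.

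Among other enzymes that add sugars to the receptor, 5 of 7 had positive values, with a median of 0.31. Gxylt2, a xylosyltransferase, had 24.1 CPM in HET 505 and 10.7 and 9.91 CPM in the other HET animals, against 6.76 to 9.90 CPM in WT, and its log2 fold change was 0.91 (SE 0.35). HET 505 stood far above the other animals, which lay close together. Eogt, which adds N-acetylglucosamine, was at 0.31 (SE 0.11) and Pofut1, which adds the fucose that fringes extend, at 0.31 (SE 0.15). Rfng, the remaining fringe, had a negative value (-0.29, SE 0.14), opposite in sign to Lfng and Mfng, and its HET animals lay below all WT animals.

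Of 10 genes for receptor cleavage, 8 had positive values, with a median of 0.17. Adam17 (0.37) and Adam10 (0.24), the proteases of the outer cut, Furin (0.26), which processes the receptor precursor, and Aph1a (0.22), a gamma-secretase subunit, had unadjusted p-values under 0.05. The nuclear group had a median of 0.11, with the coactivators Maml2 (0.34) and Maml3 (0.32) under an unadjusted p of 0.05. Snw1, a cofactor of RBPJ, was at 0.27, and Rbpj itself was at -0.13 (SE 0.13).

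The inhibitors were mixed, with 4 positive and 6 negative values. Nrarp, a target and feedback inhibitor of the pathway, had 4.65, 5.53 and 5.31 CPM in HET and 10.1, 8.86 and 6.02 CPM in WT animals (log2 fold change -0.69, SE 0.20, edgeR adjusted p = 0.168). Numbl (-0.40) and the ubiquitin ligase gene Dtx1 (-0.29) were lower at an unadjusted p under 0.05, and Numb (0.39), a paralog of Numbl, was higher.

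Of the Hes and Hey repressors, 4 of 5 were tested and 3 of these had positive values. Hes1 measured 8.57, 6.40 and 6.42 CPM in HET and 3.50, 3.92 and 5.41 CPM in WT animals, a log2 fold change of 0.74 (SE 0.21, unadjusted p = 0.00808, edgeR adjusted p = 0.167). Hey1, far more abundant, measured 123, 103 and 112 CPM in HET and 77.7, 73.1 and 96.6 CPM in WT animals (log2 fold change 0.45, SE 0.13, edgeR adjusted p = 0.167). The HET animals lay above all WT animals for both, and WT 513 was the highest WT animal, as it was for Notch2 and Lfng. Hey2 was at 0.15 (SE 0.17). Hes5 had the opposite sign, with 0.353, 0.555 and 0.418 CPM in HET and 0.884, 0.601 and 0.515 CPM in WT animals (log2 fold change -0.60, SE 0.32, edgeR adjusted p = 0.276), and its groups overlapped.

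Neurog2, a proneural factor that acts upstream of Delta genes, had 2.02 to 3.57 CPM in HET and 2.41 to 5.56 CPM in WT animals (log2 fold change -0.54, SE 0.33), and its groups overlapped. Neurog1 did not pass the filter.

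**Figure D5:**
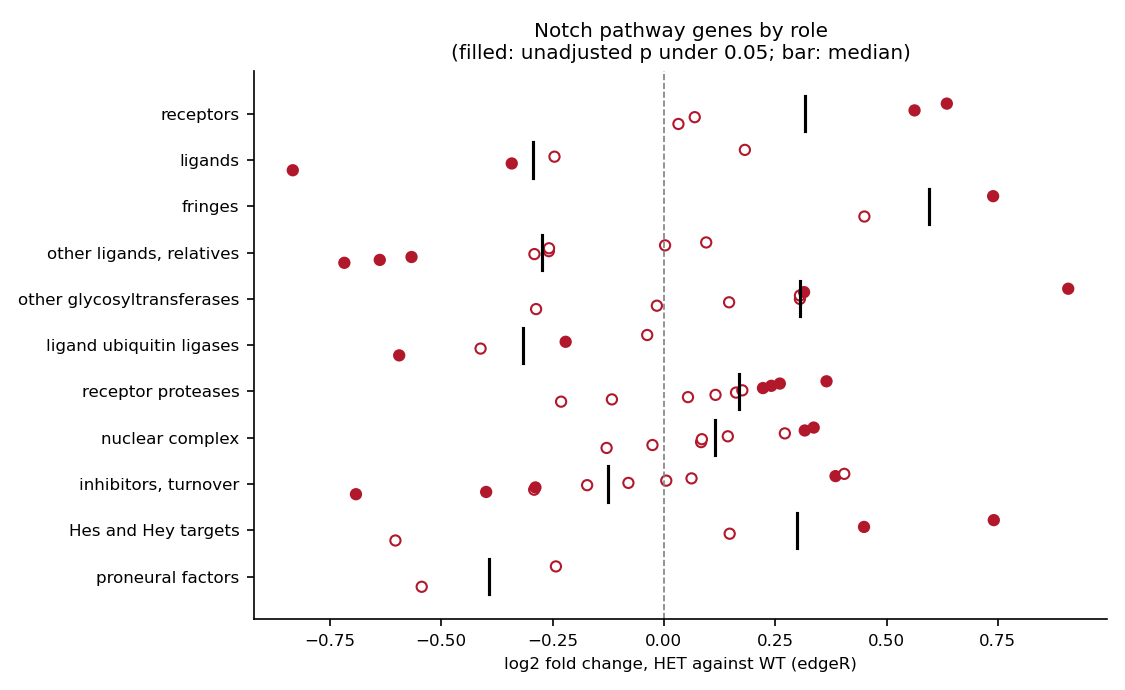
edgeR log2 fold change of HET against WT for each tested Notch pathway gene, in rows by role, with 1 point per gene (filled, unadjusted p under 0.05; open, not) and a bar at the median of the row. The 4 receptors, Lfng and Mfng lie to the right of 0 and the 4 ligand ubiquitin ligases to the left, while no gene passed an adjusted p of 0.1.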

How the data were processed

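RNA-seq was compared between 3 HET and 3 WT animals, grouped by their labels. Raw counts for each gene in each library were deposited by the authors, who made them from stranded, 100 bp paired-end reads aligned with STAR to mm10. No source used here names the counting tool. The deposited normalised counts (unit signal), each animal's summed count over its DESeq2 size factor, were used to check the sums, and the authors' table of log2 fold changes and p-values was not used. Counts were summed per animal and fitted in R 4.3.3 with edgeR 4.0.16 (filterByExpr with a minimum count of 10, TMM, quasi-likelihood test, Benjamini-Hochberg over 18264 genes, adjusted p under 0.1). CPM used TMM-scaled library sizes, and marker lists used log2 of CPM plus 0.1. Depth per animal was 40642699 to 52833161 counts. Alternatives used DESeq2 1.42.0 and limma 3.58.1. With the labels not saying that libraries came from separate cultures, animals were the replicates.

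The members and all gene lists were chosen with earlier results of these data known. The text names all 10 members, up to 4 genes with the smallest p per pathway list, any marker, Myt1l, and for each member the gene with the most similar profile. Dll4, Rfng, Xist, Neurog1 and Gm42820 were named after their values were seen. The result of 1 listed gene is not reported here.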

Additional observations from a re-analysis of the deposited data

How the results depend on the processing

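Each member was refitted under 17 alternatives. The sign held in all 17 for Notch2, Notch4, Dll1, Dll3, Jag2, Lfng and Mfng, in 16 for Jag1, 13 for Notch1 and 11 for Notch3. The reversed values were small: Notch1 was -0.014 without HET 505, -0.0087 without WT 511, and -0.0075 and -0.012 with genetic sex in edgeR and DESeq2. Notch3 was -0.10 without HET 505, -0.084 without WT 510, -0.010 without WT 511, -0.044 in library 1 alone, and -0.0092 and -0.014 with genetic sex in edgeR and DESeq2, and Jag1 was -0.033 without HET 505. The cause of these changes was not tested.

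Leaving out 1 animal gave log2 fold changes of -0.014 to 0.14 for Notch1, 0.44 to 0.81 for Notch2, -0.10 to 0.18 for Notch3, 0.51 to 0.78 for Notch4, -0.30 to -0.19 for Dll1, -1.02 to -0.62 for Dll3, -0.033 to 0.31 for Jag1, -0.41 to -0.28 for Jag2, 0.56 to 1.08 for Lfng and 0.10 to 0.74 for Mfng. Calls at an adjusted p under 0.1 ran from 0 to 2294 genes higher and 0 to 1109 lower, and from 0 to 3 members higher and 0 to 2 lower, all of them without WT 513. Without WT 510, Jag2 was the 1 member with an unadjusted p under 0.05.

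DESeq2 on 6 animals called 1377 genes higher and 786 lower, 3 members higher and 1 lower (Notch2 0.55, Notch4 0.63, Lfng 0.73, Jag2 -0.35). No low-count filter gave 1021 higher and 454 lower, with 2 members higher (Notch2 0.55, Lfng 0.73). DESeq2 with genetic sex gave 224 and 35. The 12 libraries without a replicate block gave 4244 and 3866, and 3 and 2 members (Notch2 0.57, Notch4 0.64, Dll3 -0.83, Jag2 -0.34, Lfng 0.75). With the library number as a replicate block they gave 4006 and 3571, and 3 and 2 members (Notch2 0.57, Notch4 0.64, Dll3 -0.84, Jag2 -0.34, Lfng 0.75). The library numbers did not pair the animals, since the deviations of same-numbered libraries correlated at -0.0256 to 0.0366 over 15 pairs of animals. edgeR with DESeq2 size factors, limma voom, either library alone, edgeR with genetic sex and the newer quasi-likelihood method, which was chosen after seeing the data, called 0 genes, as reported. With 12 to 85 counts per animal, Mfng and Dll3 were measured least precisely.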

Other observations

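For each member, the tested gene with the most similar log2 CPM over the 6 animals was named as a description. These were Slc46a1 for Notch2 (Pearson r = 0.998), Gm38391 for Lfng (0.999), Tmem88b for Notch4 (0.999), Mapk8ip3 for Dll3 (0.9995), Pogk for Jag2 (0.993), Tmsb15b2 for Dll1 (0.995), Gsap for Jag1 (0.999), Frs2 for Notch1 (0.993), Efl1 for Notch3 (0.987) and Cdh3 for Mfng (0.994). Over only 6 animals high values are common: r was above 0.9 for 12.9% of all tested genes with Notch2, 10.6% with Lfng and 9.98% with Dll3, but for 0.454% with Notch3 and 0.767% with Mfng.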
